A study of Mus musculus with 20 samples.

Results

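The genes described here are those of the proteasome, the protease complex that degrades proteins tagged with ubiquitin. Members were found by their gene name on the array, Psm followed by a letter from a to g and a number, and the rule matched 49 of 27827 gene names, on 77 probes. Of these names, 8 are subunits of the core alpha ring, 7 of the core beta ring, 3 of the immunoproteasome and 1 of the thymoproteasome, 6 are ATPases and 11 non-ATPase subunits of the regulatory particle, 3 are chaperones that assemble its base, 4 are activators, 1 is an inhibitor and 4 are chaperones that assemble the core. The remaining name, Psmc3ip, belongs to a factor of meiotic recombination and not to the proteasome, so it is described apart and left out of the class counts.

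In the core particle, alpha rings form the gate and beta rings hold the cutting sites, which lie in Psmb5, Psmb6 and Psmb7. Interferon induces Psmb8, Psmb9 and Psmb10, which take the places of these subunits in new particles and change the peptides that reach the antigen presentation pathway. The regulatory particle binds ubiquitin chains, removes them and unfolds the substrate, with its ATPases in the base next to the core and most non-ATPase subunits in the lid. Cells that accumulate damaged or oxidised proteins, as in ischemic tissue, are known to raise the transcription of proteasome genes as a group. Leukocytes hold much more immunoproteasome than tubule cells do.

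RNA of whole kidneys of male C57BL/6 mice aged 8 to 12 weeks was measured on 20 single-colour Agilent arrays, 4 in each of 5 groups. Control mice had neither surgery nor treatment, so no sham operation separates the surgery from the ischemia. In IRI (ischemia/reperfusion injury) both renal pedicles were clamped for 45 min and the kidneys were taken after 6 h of reperfusion. IRI+Hemin mice received 25 mg/kg Hemin, an inducer of heme oxygenase, into the peritoneum 24 h before the same surgery, and Hemin mice received it without surgery. IPC+IRI mice (ischemic pre-conditioning) had 15 min of ischemia 7 days before the same injury. The labels number the samples of a group from 1 to 4 without saying more of their origin, so p-values measure the spread between these samples. In whole tissue, fewer cells of a type and less RNA per cell cannot be told apart.

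Expression is the log2 of a gene's processed signal over the 75th percentile of its array, and a difference of 1 is a doubling. The 75th percentile lay between 147 and 358 intensity units, and between 57.2% and 67.7% of the spots of an array were well above background. Each group lay on its own slide, and the scanner files give 3 days, the earliest for Control and IRI, one of its own for IRI+Hemin, and one shared by Hemin and IPC+IRI. Slide and group therefore cannot be told apart, and the comparisons made within a scan day are IRI vs Control and, besides it, IPC+IRI vs Hemin. Leaving the arrays unscaled moved the median log2 difference of all genes from 0.06 to 0.62 in Hemin vs Control, and from -0.17 to -0.05 in IRI vs Control. Control replicate 2 stood apart, since 37 of 47 members (78.7%) had their highest Control value on it, against 43.5% of 14538 genes. The 7 proximal tubule markers were bright on all arrays, with a summed signal of 264 to 462 times the 75th percentile.

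Of the 77 probes, 68 were well above background on all 20 arrays, 4 on none, and no value was saturated. Psmb11, the catalytic subunit of the thymoproteasome, was not well above background on any array and was never tested. Psma8, an alpha subunit specific to testis, was not well above background on any Control or IRI array, and its dim values entered the alpha ring counts only where enough arrays measured it. All other members passed the filter in every comparison.

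**Figure D1:**
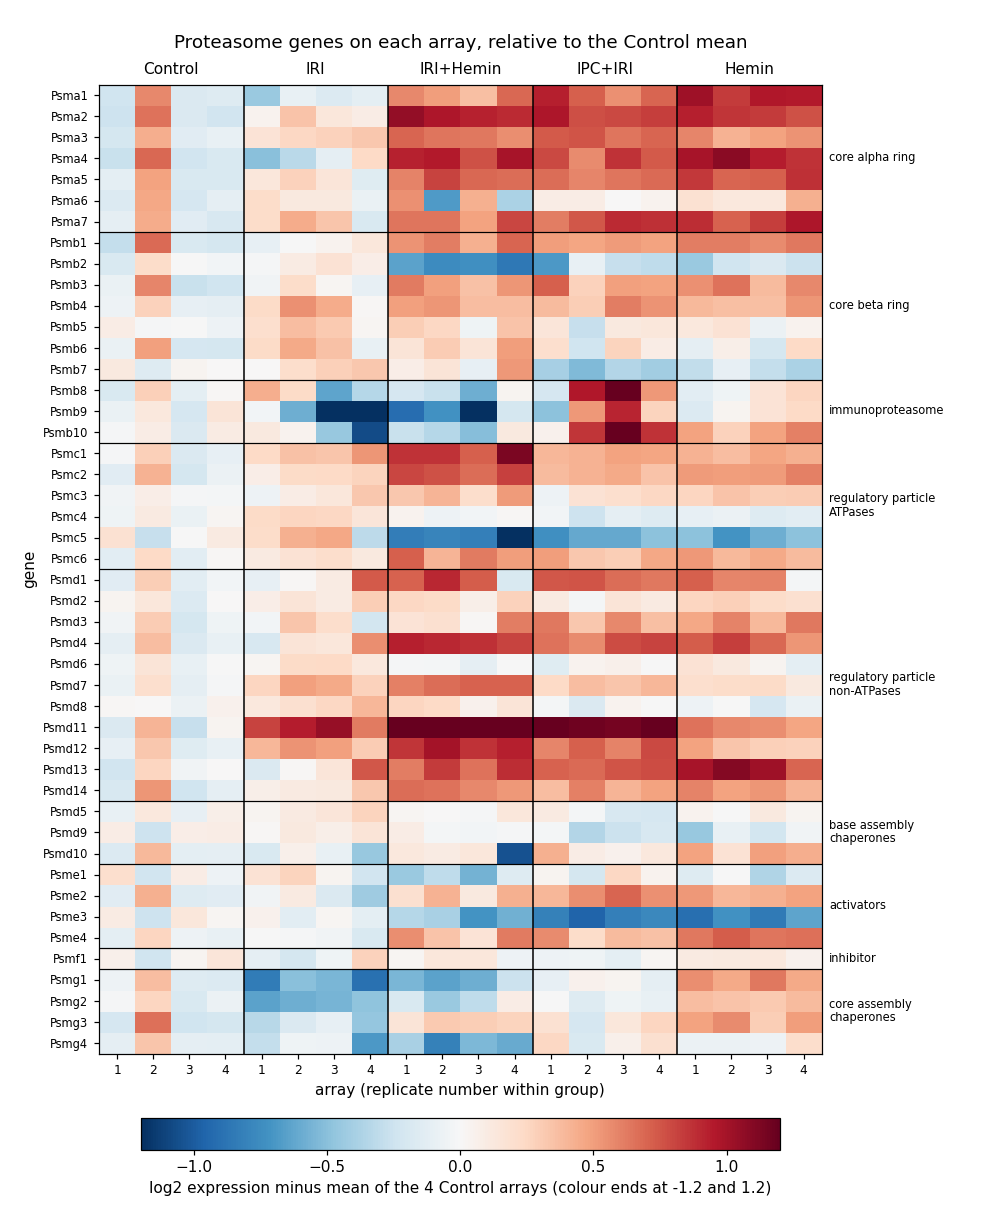
Log2 expression on the 20 arrays of all members except the dim Psma8 and Psmb11 and the recombination factor Psmc3ip. Values are differences from each gene's mean over the 4 Control arrays, with arrays in columns by group and genes in rows by class. Control replicate 2 stands out among the Control columns, and Psma2, Psma5 and Psma7 of the alpha ring are lower on all Control and IRI arrays than on any of the other 12.

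The comparison IRI vs Control asks what ischemia and 6 h of reperfusion did to the untreated kidney. In the regulatory particle 6 of 17 genes rose and a pair of core assembly chaperones fell, and 13 of the 14 core ring genes tested were not called. Of 46 members tested, 7 were called higher and 3 lower, where 17.1% of all 17725 genes tested were called higher and 33.9% lower. The median log2 difference was 0.13 over the members and -0.17 over all genes. Calls are from limma across all genes, at an adjusted p below 0.05.

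Among the 17 subunits of the regulatory particle 6 rose, none fell, and all 17 had a positive estimate, with a median of 0.19. The largest rise was in Psmd11, a lid subunit that clamps the lid to the base and the core. Psmd11 had Control values of 2.44, 3.02, 2.33 and 2.65 and IRI values of 3.42, 3.55, 3.65 and 3.24. No Control array reached the lowest IRI array. The difference was 0.85 ± 0.13 (SE), a 1.81-fold rise (limma adjusted p = 2.6e-05). Its array gene name covers 3 probes. The probe for the RefSeq transcript (mm9 chr11:80285272-80285331, plus strand) differed by 0.86 and sets the value, while the other probes are dim and lie on the opposite strand.

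Psmd12, a scaffold subunit of the lid, had Control values of 2.20, 2.62, 2.15 and 2.21 and IRI values of 2.69, 2.84, 2.79 and 2.60, and only Control replicate 2 overlapped the IRI arrays. It rose by 0.43 ± 0.10 (1.35-fold, limma adjusted p = 0.0022). Psmd7, the lid partner that holds the deubiquitinating subunit, rose by 0.37 ± 0.09 (limma adjusted p = 0.0022) with no overlap of the groups. Of the base ATPases, which unfold the substrate, Psmc1 rose by 0.36 and Psmc4 by 0.22, and the lid subunit Psmd8 rose by 0.24. Psmb4, a structural subunit of the beta ring, rose by 0.31 (limma adjusted p = 0.040) and was the core ring gene called. The call of Psmc1 held when any 1 array was left out, but over all 18 alternatives 15 kept it (limma adjusted p up to 0.23). The other 3 depended on single arrays. Psmb4 lost its call without Control replicate 1 (0.29), 3 (0.28) or 4 (0.27) or IRI replicate 2 (0.23) or 3 (0.26), Psmc4 without Control replicate 1 (0.20) or 3 (0.19) or IRI replicate 2 (0.21) or 3 (0.21), and Psmd8 without Control replicate 3 (0.22) or IRI replicate 3 (0.24) or 4 (0.19).

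The ubiquitin receptor Psmd4 and the deubiquitinating subunit Psmd14 differed by 0.17 and 0.16 and did not pass (limma adjusted p = 0.34 and 0.35). The cutting subunits Psmb5, Psmb6 and Psmb7 differed by 0.23, 0.24 and 0.21 and did not pass either (limma adjusted p = 0.11, 0.24 and 0.16). None of the 4 activators and none of the 3 base assembly chaperones was called. The count of members called higher depended on single arrays, since it was 16 without Control replicate 2 and 4 without Control replicate 3 or without IRI replicate 3. It was 2 with another background correction (normexp) and 1 without scaling between arrays, where Psmd11 alone passed.

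The chaperones that assemble the core went the other way, with 2 of 4 called lower and a median of -0.42. Psmg1 and Psmg2 form the pair that starts the alpha ring. Psmg1 had Control values of 1.85, 2.28, 1.76 and 1.74 and IRI values of 1.07, 1.41, 1.36 and 1.02. All IRI arrays lay below all Control arrays, and the difference was -0.70 ± 0.13 (1.62-fold lower, limma adjusted p = 0.00022). Its probe spans mm9 chr16:96201661-96203710 on the minus strand and is shown because a single probe carries this result.
Psmg1 probe: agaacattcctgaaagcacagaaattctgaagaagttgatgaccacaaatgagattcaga

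Psmg2 had Control values of 0.81, 1.08, 0.64 and 0.75 and IRI values of 0.18, 0.24, 0.26 and 0.34. The groups did not overlap, the difference was -0.56 ± 0.11 (1.48-fold lower, limma adjusted p = 0.00037), and both of its probes were lower, by log2 differences of -0.56 and -0.58. Psmg3 and Psmg4, the second chaperone pair, differed by -0.27 each and did not pass (limma adjusted p = 0.19 and 0.15).

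**Figure D2:**
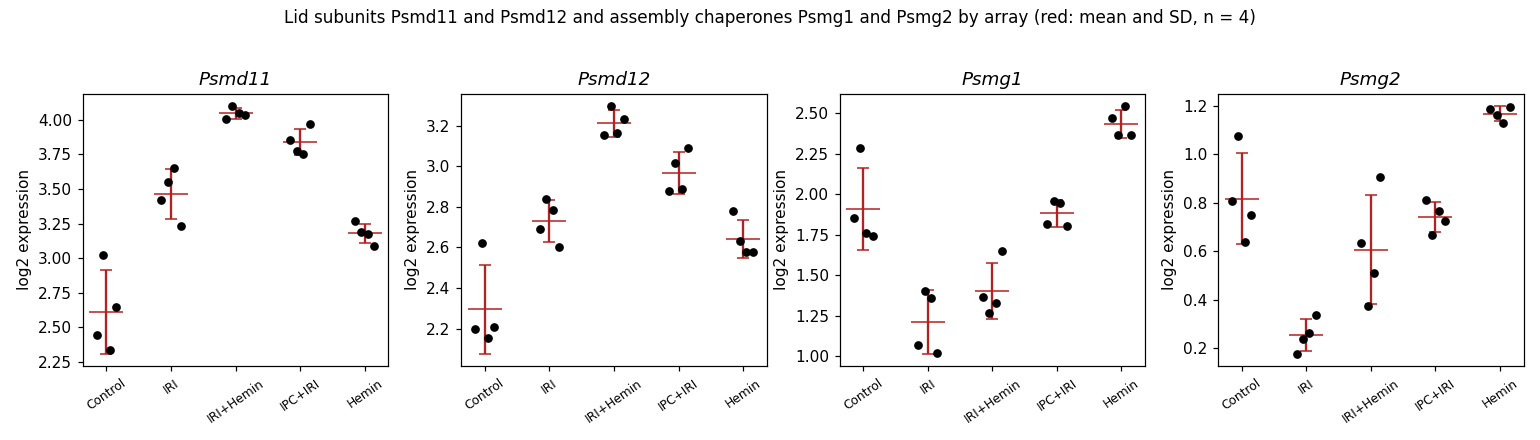
Log2 expression of Psmd11, Psmd12, Psmg1 and Psmg2 by group, with 1 point per array and the mean and SD (n = 4) in red. Psmd11 and Psmd12 are higher and Psmg1 and Psmg2 lower in IRI than in Control, in IRI+Hemin than in Hemin, and in IPC+IRI than in Hemin.

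The same injury can be read a second time in kidneys that had received Hemin, and these arrays share none with IRI vs Control. In IRI+Hemin vs Hemin 6 of 47 members were called higher and 9 lower, against 16.5% and 27.9% of 18635 genes. The median was -0.04 over the members and -0.15 over all genes. Regulatory particle genes again made up most of the rises, with 5 of 17 higher and none lower, and core assembly chaperones were lower in 3 of 4.

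Psmd11 had IRI+Hemin values of 4.01, 4.10, 4.05 and 4.03 and Hemin values of 3.27, 3.19, 3.17 and 3.09. The groups were far apart against a spread of 0.04 and 0.07 (SD), and the difference was 0.87 ± 0.13 (limma adjusted p = 4.0e-05). Psmd12 differed by 0.57 ± 0.11, from 2.64 ± 0.09 in Hemin to 3.21 ± 0.07 in IRI+Hemin (mean ± SD, n = 4; limma adjusted p = 0.00035). Psmg1 had IRI+Hemin values of 1.36, 1.27, 1.33 and 1.65 and Hemin values of 2.47, 2.37, 2.54 and 2.36. No array overlapped, and this was the largest fall of a core chaperone in any comparison, at -1.03 ± 0.13 (2.05-fold lower, limma adjusted p = 8.8e-06).

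Of the 7 members called higher in IRI vs Control, 5 were also called higher in IRI+Hemin vs Hemin (71.4% of 7 and 83.3% of 6). These were Psmc1, Psmd11, Psmd12, Psmd7 and Psmd8, and Psmd8 lost its second call without IRI+Hemin replicate 1 (0.24) or 2 (0.24) or Hemin replicate 3 (0.23). Without scaling between arrays 1 member was called higher in each of these comparisons. All 3 members called lower in IRI vs Control, which were Psmb9, Psmg1 and Psmg2, were among the 9 called lower in IRI+Hemin vs Hemin (33.3% of 9). The share of all genes called in both comparisons was not counted, so these overlaps have no background beside them. IRI+Hemin and Hemin differ in scan day, and the count of members called lower was 5 without Hemin replicate 4.

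Whether the change with ischemia differed between treated and untreated kidneys was tested as an interaction. None of 47 members was called by limma, with 3 at an unadjusted p below 0.05, where 7.79% of 19069 genes were called. For Psmd11 the difference of the differences was 0.02 and for Psmg2 it was 0.00, while for Psmg1 it was -0.34 (limma adjusted p = 0.29). Leaving out IRI replicate 4 gave 2 calls, and leaving out Control replicate 2 or Hemin replicate 1 gave 1 each. On simulated data this test recovered 4% of log2 changes of 0.5 and 49% of changes of 1, so a miss does not show that the responses were alike.

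The other comparison within a scan day, IPC+IRI vs Hemin, sets injured pre-conditioned kidneys against uninjured treated ones. It differs in more than the injury, since one group was pre-conditioned and the other received Hemin. Of 47 members 2 were called higher and 3 lower, against 13.2% and 22.8% of 18549 genes. Psmd11 and Psmd12 were the genes called higher, and Psmg1, Psmg2 and the dim Psma8 were called lower. Psmd11 had IPC+IRI values of 3.86, 3.78, 3.76 and 3.97, all above the Hemin arrays, and differed by 0.66 ± 0.13 (limma adjusted p = 0.00062). Psmg1 had IPC+IRI values of 1.82, 1.96, 1.95 and 1.80, all below the Hemin arrays, and differed by -0.55 ± 0.13 (limma adjusted p = 0.0028).

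Psmd12 differed by 0.33 in the same comparison and Psmg2 by -0.43 (limma adjusted p = 0.022 and 0.0060). The call of Psmd12 was lost in turn without IPC+IRI replicate 2, IPC+IRI replicate 4, Hemin replicate 3 and Hemin replicate 4, with differences of 0.31, 0.29, 0.31 and 0.31, and each of these fits left 1 member called higher. Of the 7 members called higher in IRI vs Control 2 were also called here (28.6% of 7 and 100% of 2), and of the 3 called lower 2 were also called here (66.7% of each). The share of all genes called in both was not counted here either. Psmd11, Psmg1 and Psmg2 kept their calls in all 3 comparisons of injured with uninjured kidneys named so far when any 1 array was left out, but the Hemin arrays serve in 2 of the 3, which are not independent of each other. Without scaling between arrays, Psmd11 lost its call in IPC+IRI vs Hemin (0.53), Psmg2 in IRI vs Control (-0.44) and IPC+IRI vs Hemin (-0.55), and Psmd12 in all 3 (0.55, 0.49 in IRI+Hemin vs Hemin, and 0.20). With the mean of the log2 values over its probes, Psmd11 in IRI+Hemin vs Hemin was 0.32 and did not pass. In Hemin vs Control, Psmg1, Psmg2 and Psmg3 were called higher (3 of 4 core assembly chaperones, against 18.5% of all genes). Of these calls that of Psmg1 alone held when any 1 array was left out. The falls of Psmg1 and Psmg2 against Hemin are thus measured from a level above Control. In IPC+IRI vs Control, a further comparison of injured with uninjured kidneys, none of the 4 was called (23.2% and 32.8% of all genes higher and lower).

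The order of the group means for Psmd11 was Control (2.61 ± 0.30), Hemin (3.18 ± 0.07), IRI (3.47 ± 0.18), IPC+IRI (3.84 ± 0.10) and IRI+Hemin (4.05 ± 0.04). For Psmg1 the order was IRI (1.21 ± 0.20), IRI+Hemin (1.40 ± 0.17), IPC+IRI (1.88 ± 0.08), Control (1.91 ± 0.25) and Hemin (2.44 ± 0.09). These values are means ± SD of 4 arrays. For Psmg1 neither IRI+Hemin vs IRI (limma adjusted p = 0.24) nor IPC+IRI vs Control (0.87) passed, and all 7 comparisons passed for Psmd11. The smallest, IPC+IRI vs IRI at 0.37, was lost without IRI replicate 1 (0.36), IRI replicate 4 (0.30) or IPC+IRI replicate 4 (0.33), and with quantile scaling (0.25). With the mean of the log2 values over its 3 probes, Psmd11 was 0.13 in IPC+IRI vs IRI, 0.26 in Hemin vs Control and -0.06 in IRI+Hemin vs IRI, and none of these passed.

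The immunoproteasome subunits were higher in IPC+IRI than in IRI, and 2 of 3 were lower with ischemia in Hemin-treated kidneys. The probes that carry these values lie in mm9 at chr17:34337771-34337830 and chr17:34337828-34338152 on the plus strand for Psmb8, and at chr17:34319174-34319233 on the minus strand for Psmb9. They are shown because the results on these neighbouring genes rest on them.
Psmb8 probe, first: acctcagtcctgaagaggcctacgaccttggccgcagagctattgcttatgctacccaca
Psmb8 probe, second: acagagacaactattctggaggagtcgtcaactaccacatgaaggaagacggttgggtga
Psmb9 probe: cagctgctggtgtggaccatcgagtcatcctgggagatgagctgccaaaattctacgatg

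Psmb9, the partner of Psmb6, had Control values of -0.13, 0.07, -0.25 and 0.10 and IRI values of -0.09, -0.64, -1.59 and -1.33. IRI replicate 1 lay among the Control arrays and the other IRI arrays lay below them. The difference was -0.86 ± 0.31 (1.81-fold lower, limma adjusted p = 0.028). The call was lost without Control replicate 2, Control replicate 4, IRI replicate 3 or IRI replicate 4, with differences of -0.82, -0.81, -0.63 and -0.72, and also with normexp (-0.63) and without scaling (-0.74). Psmb8 and Psmb10 differed by -0.08 and -0.34 and did not pass (limma adjusted p = 0.84 and 0.26).

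In IPC+IRI vs IRI all 3 were called higher, with Psmb9 at 1.16 ± 0.31, Psmb10 at 1.10 ± 0.24 and Psmb8 at 0.75 ± 0.27 (limma adjusted p = 0.0060, 0.0016 and 0.034). In this comparison 26.3% of 17677 genes were called higher and 17.8% lower. Psmb10, the partner of Psmb7, had IPC+IRI values of 1.79, 2.59, 3.01 and 2.60 and IRI values of 1.86, 1.78, 1.28 and 0.67. Psmb8, the partner of Psmb5, had IPC+IRI values of 0.09, 1.24, 1.70 and 0.80 and IRI values of 0.73, 0.51, -0.34 and -0.05. IPC+IRI replicate 1 was the lowest of its group for all 3 genes and overlapped the IRI arrays, and replicate 3 was the highest.

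Psmb8 rests on single arrays, since its call against IRI was lost without IRI replicate 3 (0.56), IRI replicate 4 (0.66), IPC+IRI replicate 2 (0.65) or IPC+IRI replicate 3 (0.50, limma adjusted p = 0.14). Against Control, Psmb10 was higher by 0.76 and Psmb8 by 0.67 (limma adjusted p = 0.013 and 0.045), while Psmb9 differed by 0.30 and did not pass (limma adjusted p = 0.43). Without IPC+IRI replicate 3 neither passed (Psmb10 0.59, Psmb8 0.43), and Psmb8 also missed the threshold without Control replicate 1, 3 or 4 or without IPC+IRI replicate 2 or 4, and with normexp (0.56). Fitted on the compared arrays alone, Psmb8 passed neither against IRI nor against Control (limma adjusted p = 0.126 and 0.098). Both Psmb8 probes gave similar differences against IRI, 0.71 for the first and 0.78 for the second. In IPC+IRI vs Hemin, within a scan day, none was called, with Psmb8 at 0.61, Psmb10 at 0.30 and Psmb9 at 0.24 (limma adjusted p = 0.092, 0.36 and 0.58). Psmb8 passed in that comparison without IPC+IRI replicate 1, at 0.90.

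Markers of leukocytes varied over the IPC+IRI arrays in the same order as Psmb8 and Psmb9. The summed signal of 12 leukocyte markers, as multiples of the 75th percentile, was 11.9, 34.3, 54.6 and 23.4 on IPC+IRI replicates 1 to 4, 17.8 to 21.7 in Control, 25.4 to 28.1 in IRI, 14 to 20.3 in IRI+Hemin and 10.5 to 12.7 in Hemin. A sum follows the brightest markers most, so the calls of single markers are given as well. In IPC+IRI vs IRI 4 of the 11 of these markers tested rose and none fell (26.3% and 17.8% of all genes). In IRI vs Control none of the 10 tested rose and 1 fell (17.1% and 33.9%). None of 11 rose and 1 fell in IRI+Hemin vs IRI (26.3% and 18.1%) and in Hemin vs Control (18.5% and 17.6%). In IRI 2 of the 12, Cd3g and Ms4a1, were not well above background on any array, and in IRI+Hemin and IPC+IRI 1, Ms4a1. The 4 neutrophil markers summed to 6.41 to 19.8 in IPC+IRI, 2.54 to 8.45 in IRI and 0.237 to 0.539 in Control. The part of these cells in the immunoproteasome values was not tested.

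IRI+Hemin vs IRI showed no call among the 3, with differences of 0.09 for Psmb10, 0.04 for Psmb9 and -0.18 for Psmb8 (limma adjusted p = 0.80, 0.92 and 0.62). In IRI+Hemin vs Hemin, Psmb9 was lower by a log2 difference of -0.88 and Psmb10 of -0.72 (limma adjusted p = 0.030 and 0.025), and Psmb8 differed by -0.32 (limma adjusted p = 0.36). Psmb10 had IRI+Hemin values of 1.47, 1.39, 1.22 and 1.85 and Hemin values of 2.22, 2.02, 2.22 and 2.35, with no overlap. Its call was lost without IRI+Hemin replicate 2 or 3 or Hemin replicate 4, at -0.69, -0.63 and -0.67. The call of Psmb9 was lost without IRI+Hemin replicate 1 or 3 or Hemin replicate 2, 3 or 4, at -0.85, -0.68, -0.89, -0.85 and -0.82, and with normexp (-0.65).

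Each inducible subunit was also set against the subunit it replaces on the same array, a difference that does not depend on the scaling between arrays. It shows unequal change and not the ratio of the transcripts, since probes differ in brightness. Psmb10 minus Psmb7 was 0.01 ± 0.51 in IPC+IRI (mean ± SD, n = 4), -0.45 ± 0.25 in Hemin, -1.17 ± 0.20 in Control, -1.59 ± 0.06 in IRI+Hemin and -1.72 ± 0.67 in IRI. For this pair IPC+IRI did not overlap IRI or Control, Hemin did not overlap Control, and IRI+Hemin did not overlap Hemin, while IPC+IRI overlapped Hemin.

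Psmb9 minus Psmb6 was -5.36 ± 0.66 in IRI and -4.27 ± 0.29 in Control, with overlap, and it was -5.36 ± 0.35 in IRI+Hemin and -4.20 ± 0.20 in Hemin, without overlap. Psmb8 minus Psmb5 was -2.80 ± 0.78 in IPC+IRI and -3.74 ± 0.49 in IRI, with overlap. It was -3.91 ± 0.11 in IRI+Hemin and -3.45 ± 0.27 in Hemin, without overlap. In IPC+IRI Psmb9 minus Psmb6 was -4.04 ± 0.66, with overlap of both IRI and Control. All 3 pairs were thus lower in IRI+Hemin than in Hemin on every array. In that comparison Psmb7 itself was called higher, by 0.43 (kept in 18 of 19 alternatives), so the fall of Psmb10 minus Psmb7 also holds a rise of Psmb7. IRI+Hemin and Hemin lie on different slides and scan days, which a difference within an array does not remove. The differences of the pairs were not tested.

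**Figure D3:**
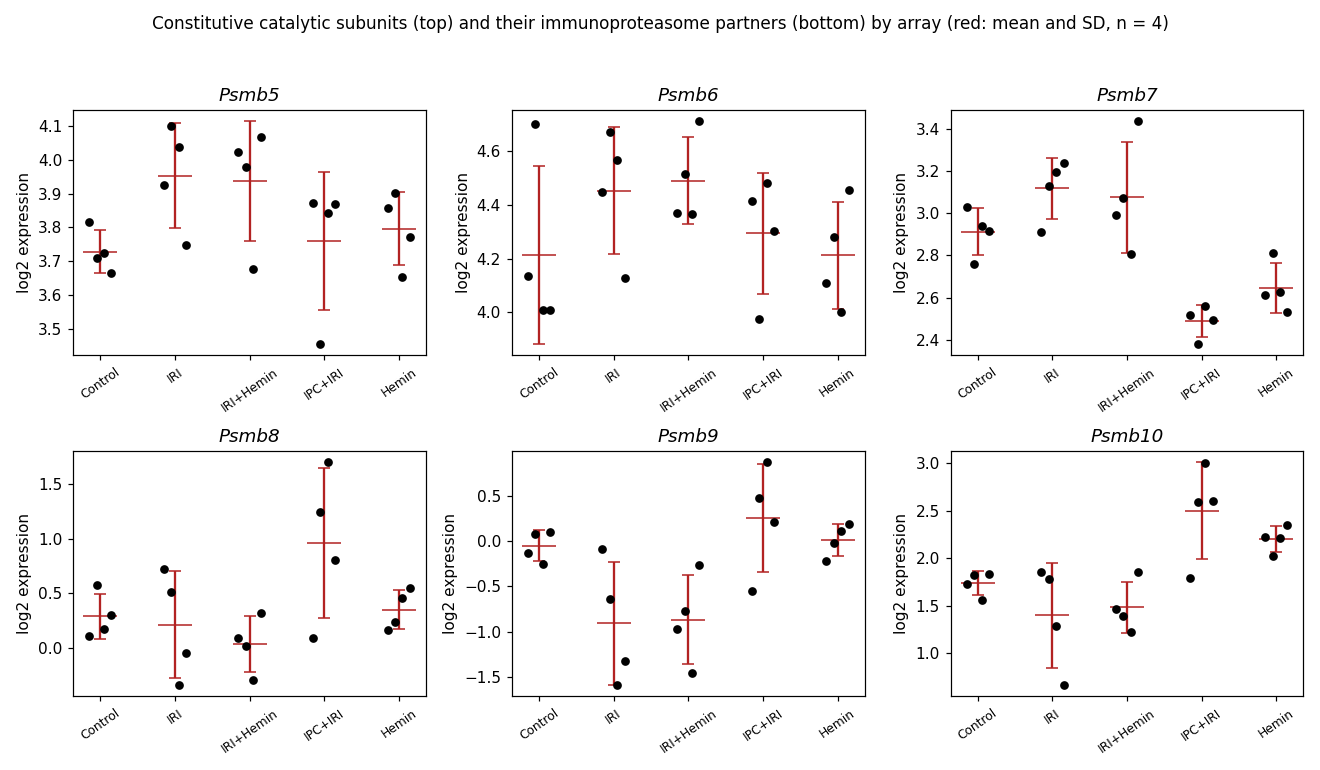
Log2 expression of the cutting subunits Psmb5, Psmb6 and Psmb7 (top) and of Psmb8, Psmb9 and Psmb10, which replace them in the immunoproteasome (bottom), with 1 point per array and the mean and SD (n = 4) in red. The lower panels show wide spreads in IPC+IRI and IRI, and Psmb7 in IPC+IRI lies between 2.38 and 2.56, below all Control and IRI arrays.

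The other 4 comparisons of the study set groups of different scan days against each other, and in each most genes of the core alpha ring were higher in the group scanned later. Hemin vs Control asks what Hemin alone did. It gave 26 of 47 members higher and 2 lower, against 18.5% and 17.6% of 18583 genes, with a median of 0.41 over the members and 0.06 over all genes. IPC+IRI vs Control gave 24 higher and 4 lower of 47, against 23.2% and 32.8% of 18360 genes, with medians of 0.34 and -0.09. IRI+Hemin vs IRI gave 21 higher and 5 lower of 46, against 26.3% and 18.1% of 17838 genes, with medians of 0.22 and 0.08. IPC+IRI vs IRI gave 19 higher and 7 lower of 47, with medians of 0.34 and 0.09.

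These comparisons share the Control or IRI arrays, so their calls are not independent of each other. In the alpha ring, which forms the gate of the core, 7 of 8 genes were called higher in Hemin vs Control (median 0.85), 6 of 8 in IPC+IRI vs Control (0.72), 6 of 8 in IPC+IRI vs IRI (0.56) and 6 of 7 in IRI+Hemin vs IRI (0.59), and none was called lower. Psma6 was not called in any comparison. The 7 genes of Hemin vs Control include the dim Psma8, which is also among the 26 members called higher there. Psma8 entered that test only through the Hemin arrays, where it was higher, so its call adds nothing to the count of rises. In the 2 comparisons within a scan day no alpha ring gene was called higher.

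Psma4 had Control values of 1.78, 2.74, 1.82 and 1.87, IRI values of 1.55, 1.73, 1.94 and 2.30, IRI+Hemin values of 2.97, 3.00, 2.82 and 3.04, IPC+IRI values of 2.85, 2.62, 2.92 and 2.79, and Hemin values of 3.04, 3.14, 3.00 and 2.92. All 12 later arrays lay above the Control and IRI arrays except Control replicate 2. Psma4 rose by 0.97 in Hemin vs Control and by 1.08 in IRI+Hemin vs IRI (limma adjusted p = 0.00078 and 0.00018), and its 2 probes differed by 0.97 each in the first of these.

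Psma1 had Control values of 3.19, 4.00, 3.26 and 3.28 and Hemin values of 4.45, 4.27, 4.39 and 4.38, without overlap, and rose by 0.94 ± 0.15 (limma adjusted p = 0.00027). It was also higher in IPC+IRI vs IRI, by 0.93, with limma adjusted p = 0.00013. Psma2 rose by 0.84 in IPC+IRI vs Control and by 0.81 in IRI+Hemin vs IRI, and Psma7 by 0.78 in IPC+IRI vs Control. With the mean of the log2 values over its probes the calls of Psma2 were lost, at 0.76 in IPC+IRI vs Control and 0.01 in IRI+Hemin vs IRI. Control replicate 2 was the highest Control array for all 4 of these genes.

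The scan day separates these groups as well. On the 14538 genes measured on all arrays, 4 of 47 members (Psma2, Psma5, Psma7 and Psmc6) were higher on all 12 later arrays than on all 8 Control and IRI arrays, against 1.96% of genes. Without Control replicate 2 there were 13 such members, against 6.51% of genes, and these were Psma1, Psma2, Psma3, Psma4, Psma5, Psma7, Psmb1, Psmb3, Psmc2, Psmc6, Psmd14, Psme2 and Psme4. Psmc5 and Psme3 were lower on all 12 later arrays, against 2.92% of genes. The later groups had received Hemin or pre-conditioning, which Control and IRI had not, and treatment, slide and scan day cannot be told apart in these comparisons.

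The regulatory particle had 11 of 17 genes higher and 1 lower in both Hemin vs Control and IPC+IRI vs Control, 9 higher and 2 lower in IRI+Hemin vs IRI, and 4 higher and 3 lower in IPC+IRI vs IRI. Of all genes, 18.5%, 23.2%, 26.3% and 26.3% were called higher and 17.6%, 32.8%, 18.1% and 17.8% lower, in that order. In IPC+IRI vs IRI the counts of the regulatory particle thus lay near the shares of all genes. Psmd4, a ubiquitin receptor, had Control values of 1.82, 2.30, 1.76 and 1.85 and Hemin values of 2.66, 2.76, 2.62 and 2.46, without overlap. It was higher in all 4 comparisons, by 0.69, 0.70, 0.72 and 0.54 in the order just given (limma adjusted p = 0.0013, 0.00041, 0.00059 and 0.0051). Psmd14, the deubiquitinating subunit, was higher by 0.50, 0.47 and 0.45 in the first 3 and differed by 0.31 in IPC+IRI vs IRI (limma adjusted p = 0.066). With the mean of the log2 values over its probes the 3 calls were lost, at 0.14, 0.11 and 0.16, and the call in IPC+IRI vs Control was also lost on the compared arrays alone (limma adjusted p = 0.057). Psmd13, a lid subunit, rose by 0.95 in Hemin vs Control, among the largest rises of that comparison. Psmd11 was higher by 1.23 ± 0.13 in IPC+IRI vs Control (2.34-fold, limma adjusted p = 6.4e-07), the largest rise of any member there.

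**Figure D4:**
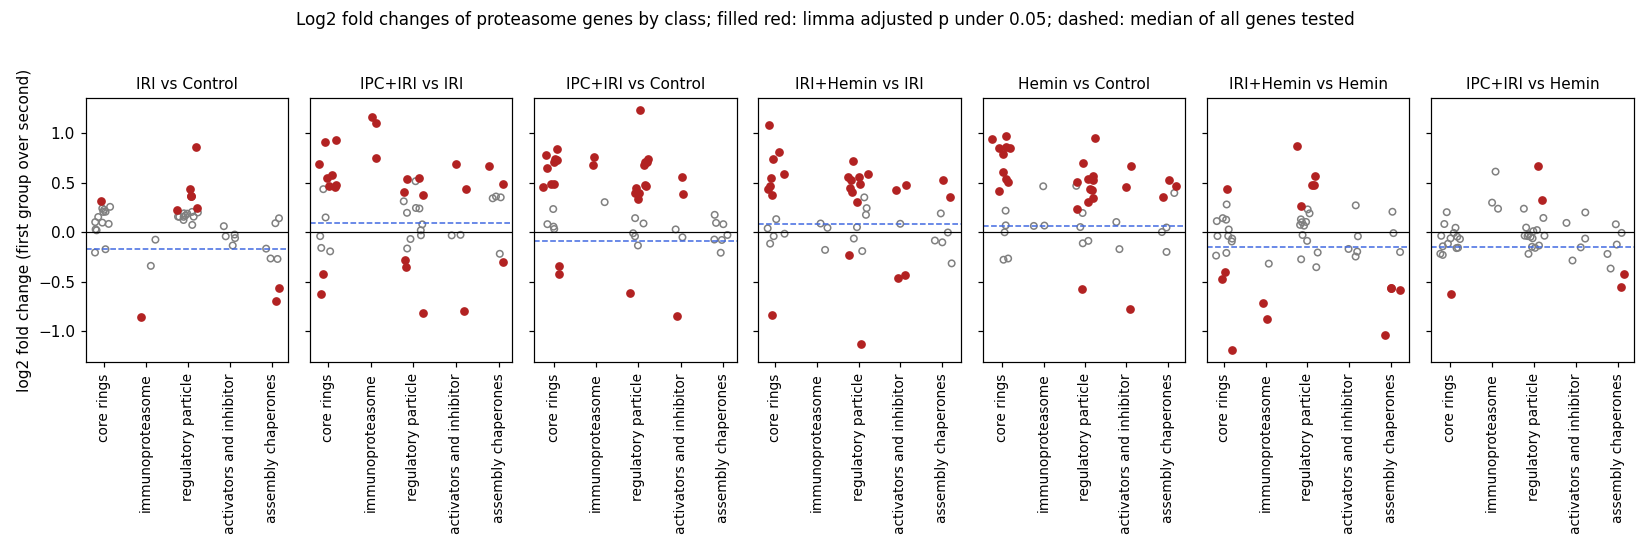
Log2 fold changes of the members by class in each comparison, with 1 point per gene, filled red where the limma adjusted p was below 0.05, and with the median of all genes as a dashed line. All 17 regulatory particle genes lie above 0 in IRI vs Control, and the core rings hold 8 to 10 filled points above 0 in the comparisons of later groups with Control or IRI.

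Fewer members were lower in these comparisons. The base ATPase Psmc5 had Control values of 3.29, 2.83, 3.11 and 3.22, IRI values of 3.34, 3.54, 3.58 and 2.80, IRI+Hemin values of 2.28, 2.32, 2.30 and 1.85, IPC+IRI values of 2.38, 2.50, 2.50 and 2.63, and Hemin values of 2.62, 2.39, 2.53 and 2.62. All later arrays lay below the Control and IRI arrays. Psmc5 fell by 1.12 in IRI+Hemin vs IRI, by 0.81 in IPC+IRI vs IRI, by 0.61 in IPC+IRI vs Control and by 0.57 in Hemin vs Control (limma adjusted p = 3.4e-05, 0.00052, 0.0030 and 0.0090). Its probes disagreed in size, at -1.52 and -0.25 in the first of these. Without scaling between arrays all but the first of these calls were lost, and in both comparisons within a scan day it was not called.

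Psmb7 had Control values of 3.03, 2.76, 2.94 and 2.92 and IPC+IRI values of 2.52, 2.38, 2.56 and 2.50, without overlap. It fell by 0.63 in IPC+IRI vs IRI and by 0.42 in IPC+IRI vs Control (limma adjusted p = 0.00046 and 0.0060), and without scaling between arrays both calls were lost, at -0.31 and 0.01. Psmb2, a beta ring subunit without a cutting site, fell by 0.83 in IRI+Hemin vs IRI (limma adjusted p = 4.2e-05) with IRI+Hemin values of 0.65, 0.54, 0.55 and 0.43 and IRI values of 1.28, 1.39, 1.47 and 1.38. Without scaling that call was lost (-0.47). Psmb2 was also lower in IPC+IRI vs Control, by a log2 difference of -0.34, which became 0.10 without scaling, and its call there was lost without Control replicate 2 (-0.27) or IPC+IRI replicate 1 (-0.22). Psmb5 and Psmb6, the other cutting subunits, were not called in any of the 7 comparisons.

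Of the activators, which open the gate of the core without the regulatory particle, Psme3 was lower in all 4 comparisons between scan days with Control or IRI. Psme3 had Control values of 2.18, 1.83, 2.22 and 2.11, IRI values of 2.14, 1.96, 2.11 and 1.97, IRI+Hemin values of 1.74, 1.70, 1.37 and 1.51, IPC+IRI values of 1.27, 1.12, 1.27 and 1.31, and Hemin values of 1.18, 1.36, 1.24 and 1.45. Control and IRI lay together above the other groups. The falls were 0.84 in IPC+IRI vs Control, 0.80 in IPC+IRI vs IRI, 0.78 in Hemin vs Control and 0.46 in IRI+Hemin vs IRI (limma adjusted p = 6.6e-06, 2.9e-05, 0.00011 and 0.0022). The last call was lost with normexp (-0.07), and all 4 were lost without scaling.

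Psme1 and Psme2 form the activator that interferon induces. Psme2 was higher by 0.69 in IPC+IRI vs IRI, 0.55 in IPC+IRI vs Control, 0.46 in Hemin vs Control and 0.42 in IRI+Hemin vs IRI (limma adjusted p = 0.00069, 0.0025, 0.015 and 0.018). The last was lost without IRI replicate 4 (0.32), IRI+Hemin replicate 2 (0.38) or IRI+Hemin replicate 4 (0.38), and the call in Hemin vs Control without Control replicate 3 (0.41). Psme1 was lower in IRI+Hemin vs IRI, at -0.43 (limma adjusted p = 0.016), and it was called in no other comparison. That call was lost without IRI replicate 2 or IRI+Hemin replicate 3 (-0.36 in both fits) and without scaling between arrays (-0.06). Psme4, the large nuclear activator, was higher by 0.67 in Hemin vs Control, but its probes point in different directions. Psmf1, which inhibits the core, was called in no comparison, with group means from -0.92 to -0.77.

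Several probes were tested for 18 members, and their agreement differed between comparisons. The median range between the probes of a gene was 0.11 in IRI vs Control, 0.18 in IPC+IRI vs Hemin, and 0.21 to 0.29 in the other comparisons. Over 4793 genes with several such probes it was 0.26 and 0.25 in the comparisons within a scan day and 0.39 to 0.50 between scan days. Opposite signs within a gene occurred for 4 of the 18 members in IRI vs Control (22.2%, against 28.9% of all such genes) and for 5 to 8 elsewhere (27.8% to 44.4%, against 30.4% to 44.4%).

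Psmd9, a chaperone of the base, had probes at -0.03 and 0.23 in IRI vs Control and at -1.21 and 0.44 in IPC+IRI vs Control. The latter was the widest range of any member there among probes well above background on all arrays. For Psmd12, in IRI vs Control 2 of its probes rose by 0.51 and 0.31 and the remaining one differed by -0.29, and in IPC+IRI vs Control these values were 0.79, 0.54 and -0.80. The 2 probes that rose lie at mm9 chr11:107358963-107359022 and chr11:107347092-107347728 on the plus strand and are shown in that order because the gene's call rests on them.
Psmd12 probe, first: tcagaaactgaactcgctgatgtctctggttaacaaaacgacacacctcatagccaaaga
Psmd12 probe, second: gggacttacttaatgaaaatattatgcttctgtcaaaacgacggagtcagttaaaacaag

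Psmd7 in IPC+IRI vs Control had 1 probe at -0.04 and the others at 0.91 and 0.88, where the first is the brightest, and its gene value was 0.34. Psme4 in IPC+IRI vs Control had its brightest probe at 0.50, 2 others at -0.40 and -0.39 and a dim one at 2.43. Where a gene was counted only if all its tested probes were called the same way, a choice made after seeing the data, 5 members were higher and 3 lower in IRI vs Control. Taking the mean of the log2 values over the probes, which gives dim probes an equal weight, moved Psmd12 in IRI vs Control to 0.18, Psma2 in Hemin vs Control to 0.00 and Psmd11 in IRI+Hemin vs IRI to -0.06, and none of these passed.

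**Figure D5:**
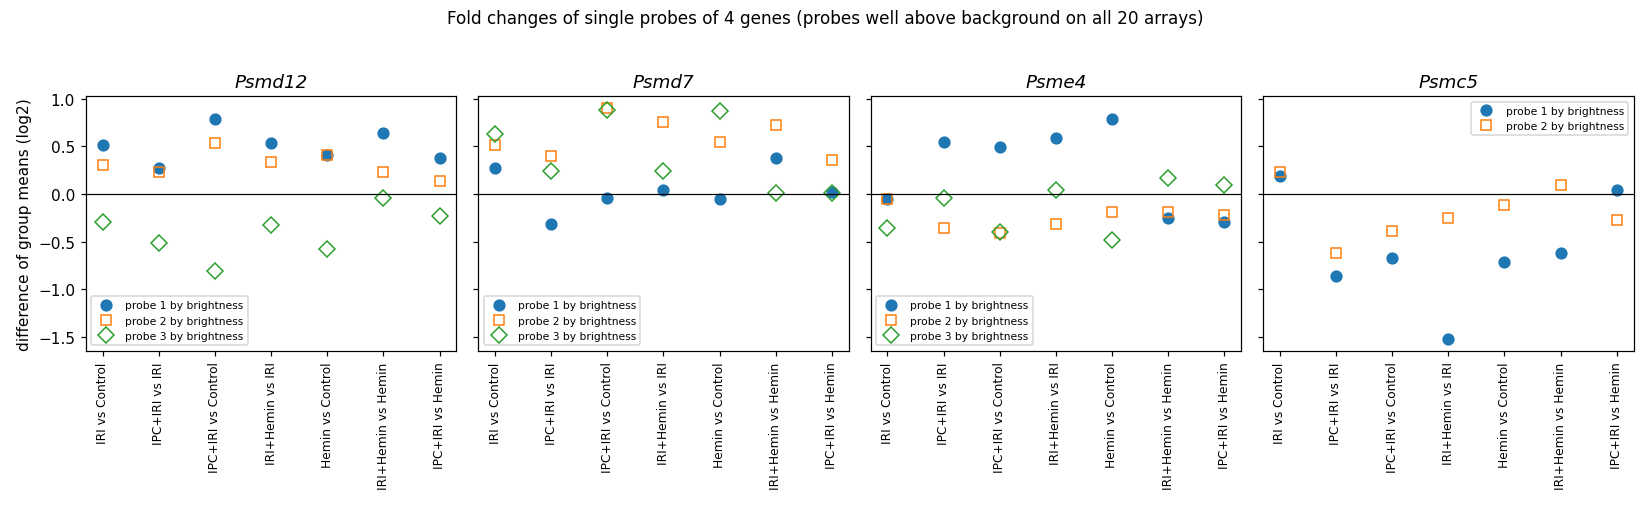
Differences of group means (log2) of single probes of Psmd12, Psmd7, Psme4 and Psmc5 in the 7 comparisons, with 1 symbol per probe, ordered by brightness, for probes well above background on all 20 arrays. In IPC+IRI vs Control the probes of Psmd12 range from -0.80 to 0.79, and in IRI+Hemin vs IRI those of Psmc5 lie at -1.52 and -0.25.

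Genes around the proteasome were read from a list of 28 ubiquitin and proteasome partners, of which 27 were found on the array. In IRI vs Control 13 of 27 were called higher and none lower, in IRI+Hemin vs Hemin 11 were higher and 1 lower, and in IPC+IRI vs Hemin 7 were higher and none lower, beside the shares of all genes given above. Zfand5, which binds and stimulates the proteasome, rose by 1.75, 1.18 and 1.61 in these comparisons. Zfand2a, its arsenite-inducible relative, rose by 1.95, 1.26 and 1.38, and the autophagy receptor Sqstm1 by 1.15, 0.84 and 0.52. The ubiquitin gene Ubb rose by 0.53, 0.83 and 0.52.

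Nfe2l2, a transcription factor for oxidative stress genes, rose by 0.62 in IRI vs Control and by 0.69 in IRI+Hemin vs Hemin. Nfe2l1, which raises proteasome genes when the proteasome is inhibited, was not called in any comparison. Between scan days, Pomp, the chaperone that completes the core, was higher by 0.83 in Hemin vs Control, 0.99 in IPC+IRI vs Control, 0.94 in IPC+IRI vs IRI and 0.63 in IRI+Hemin vs IRI. The lid subunit Shfm1 was higher by 0.75, 0.83, 0.84 and 0.53 in the same order. The proteasome-bound deubiquitinase Usp14 was lower, at -0.65, -0.39, -0.85 and -0.97. Of the 27 partners 7 were higher and 3 lower in Hemin vs Control (18.5% and 17.6% of all genes), 9 and 3 in IPC+IRI vs Control (23.2% and 32.8%), 4 and 9 in IPC+IRI vs IRI (26.3% and 17.8%), and 5 and 6 in IRI+Hemin vs IRI (26.3% and 18.1%).

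Of 10 partners of the immunoproteasome in antigen processing 9 were found. In IRI vs Control 4 rose and 1 fell (17.1% and 33.9% of all genes tested), while no immunoproteasome subunit rose. The class I genes H2-K1 and H2-D1 rose by 0.67 and 0.65 and the interferon response factor Irf1 by 0.68. In IPC+IRI vs Control 6 rose and none fell (23.2% and 32.8% of all genes), among them H2-K1 by 0.98, Irf1 by 1.05 and the peptide transporter genes Tap1 by 0.89 and Tap2 by 1.13. In IPC+IRI vs Hemin 6 rose as well and none fell (13.2% and 22.8% of all genes), with H2-K1 at 1.14. The comparison in which all 3 immunoproteasome subunits rose, IPC+IRI vs IRI, had 1 of the 9 partners higher and none lower (26.3% and 17.8% of all genes), and in IRI+Hemin vs IRI 1 rose and 3 fell (26.3% and 18.1%). In IRI+Hemin vs Hemin 1 rose and 3 fell (16.5% and 27.9% of all genes), among them Tap1 by 0.95 and Tap2 by 0.51, beside the falls of Psmb9 and Psmb10. Tap1 lies next to Psmb9 in the genome.

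Promoters of 41 of the 49 names were found by symbol among 32851 promoters from RefSeq (GRCm38.p6), each from 250 bases before to 50 after the start of transcription. The antioxidant response element, searched as TGACNNNGC on both strands, was in at least 1 promoter of 14% of 27025 genes (12.4% of promoters) and in those of 6 of the 41 members, Psmb5, Psmb6, Psmc6, Psmd12, Psmd9 and Psme4. The interferon-stimulated response element, searched as GAAA, any pair of bases and GAAA again, was in those of 4.0% of genes (3.4% of promoters) and in those of 5 members, Psmb3, Psmd4, Psmd9, Psme1 and Psmg4. The gamma-activated site, searched as TTCNNNGAA, was in those of 9.6% of genes (8.3% of promoters) and in those of 3 members, Psmb8, Psmd2 and Psmg1. The CCAAT box was in those of 41.1% of genes (37.4% of promoters) and in those of 15 members.

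Of the 6 members with the antioxidant response element, Psmd12 was called higher in IRI vs Control and the other 5 were not called. In the stretches shown, capitals mark the antioxidant response element in Psmb5 and Psmb6 and the gamma-activated site in Psmb8, and they are shown because they set the promoters of 2 constitutive cutting subunits beside that of an inducible one. They lie at chr14:54618009-54618068 on the minus strand, chr11:70525297-70525356 on the plus strand and chr17:34198072-34198131 on the plus strand, and the matches begin 47, 9 and 97 bases before the start. A match is a description of letters and no evidence of binding.
Psmb5: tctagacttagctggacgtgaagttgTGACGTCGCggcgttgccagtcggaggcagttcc
Psmb6: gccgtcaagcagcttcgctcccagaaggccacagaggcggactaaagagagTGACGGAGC
Psmb8: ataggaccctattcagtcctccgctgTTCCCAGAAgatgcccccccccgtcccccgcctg

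Psmc3ip, the recombination factor that shares the name pattern, was lower in IRI vs Control by a log2 difference of -0.64, in IRI+Hemin vs Hemin of -1.26 and in IPC+IRI vs Hemin of -0.59 (limma adjusted p = 0.00021, 4.6e-07 and 0.00083). It was higher in Hemin vs Control and in IPC+IRI vs IRI, by 0.52 and 0.56. The groups of each of these comparisons did not overlap. Its level was low, with Control values of -1.29, -1.18, -1.43 and -1.53, and with normexp the difference was -0.17 in IRI vs Control and 0.02 in IPC+IRI vs IRI.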

How the data were processed

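RNA of 20 kidneys (5 groups of 4) was labelled with 1 dye and hybridised to Agilent 4x44K arrays. The authors deposited the scanner output of Agilent Feature Extraction 9.5.3.1, whose processed signal is an intensity after background subtraction, without scaling between arrays. They also deposited a log2 matrix, equal to the log2 of that signal within 0.001 for 100% of 33598 single-spot probes, with 18.1% of values blank. The number of arrays limits the precision, and 0 columns of other samples were present.

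Control spots and flagged spots were left out, repeat spots of a probe were replaced by their mean, signals were expressed relative to the 75th percentile of their array, and probes sharing a gene name were averaged on the linear scale before log2. A gene was tested with at most 1 missing value over both groups and at least 3 of 4 arrays of either group well above background, a flag of the scanner software. Group means of all 20 arrays were fitted with limma 3.58.1 (lmFit and eBayes, 15 residual degrees of freedom) in R 4.3.3 with data.table (version 1.17.8), and p-values were adjusted by Benjamini-Hochberg over all genes tested in a comparison. The study's methods used SAM with fold cutoffs, and limma was used here in its place. Besides the 5 comparisons of the study, IRI+Hemin vs Hemin, IPC+IRI vs Hemin and the interaction of Hemin and IRI were fitted. Tables and plots used python 3.11.15, pandas 2.3.3, numpy 2.4.6, scipy 1.17.1 and matplotlib 3.10.9. On simulated data for IRI vs Control (17725 genes) the fit recovered 26% of log2 changes of 0.5 and 69% of changes of 1, with 5% of calls false.

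The members and the lists of genes and markers were chosen with earlier results of these data known. Named in any case were Psmb5 to Psmb10, the activators, Psmf1, Psmg1, Psmd4 and Psmd14, with the 3 largest called rises and falls of each comparison of the study. Psmb4, Psmc1, Psmc4, Psmd8, Psmg2, Psmg3, Psmg4, the other members named in the text and the list genes given with values were chosen after their values were seen. Some genes of the lists are not reported here. Alternatives were normexp background correction (offset 50), quantile scaling, no scaling, the percentile of probes well above background, other filters, the brightest probe or the mean of log2 values per gene, the deposited matrix, fits of the compared arrays only, a block for the replicate number, fold cutoffs and leaving out each array. Probe coordinates are those of the scanner files (mm9), and exon and UTR annotation was not used here. Promoter sequences were credited to RefSeq (GRCm38.p6).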

Additional observations from a re-analysis of the deposited data

Results flagged for a closer look

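In 15 of 160 sets of 4 arrays looked at (5 groups for each of 32 genes, 9.4%), the highest or lowest array stood far from the other 3, and chance gives such a gap in about 1 of 20 sets. Control replicate 2 held 11 of the 15, and it was the highest Control array each time. Its log2 expression was 4.00 for Psma1 and 4.00 for Psma2, where the next Control arrays were at 3.28 and 3.18. Among the other core genes it was 2.74 for Psma4 (next 1.87), 4.75 for Psma7 (4.19) and 5.02 for Psmb4 (4.68). For the regulatory particle it was 2.62 for Psmd12 (2.21) and 2.30 for Psmd4 (1.85), and for the activators 4.13 for Psme2 (3.57) and 3.04 for Psme4 (2.73). The chaperones Psmg3 and Psmg4 had 1.83 (next 0.97) and 1.55 (1.11) there.

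Hemin replicate 4 was high for Psmb4 at 5.28 (next 5.14) and for Psmg4 at 1.42 (1.15). Low arrays were IPC+IRI replicate 2 for Psmb5, at 3.45 against 3.84 for the nearest, and IRI+Hemin replicate 4 for Psmc5, at 1.85 against 2.28.

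Psmc3ip, the recombination factor, fell more with IRI in Hemin-treated than in untreated kidneys, by a difference of the differences of -0.62 (limma adjusted p = 0.028). The call was lost in 7 of the fits that left out 1 array, which were those without Control replicate 3 (-0.60) or 4 (-0.56), IRI replicate 3 (-0.58), IRI+Hemin replicate 1 (-0.59) or 4 (-0.55), or Hemin replicate 1 (-0.58) or 2 (-0.60). It was also lost with normexp (-0.56), without scaling (-0.82), with the brightest probe (-0.84) and with no filter (-0.62), and over all 27 alternatives 16 kept it, with adjusted p from 0.014 to 0.32.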

How the results depend on the processing

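Over the named genes, of the values called as reported 1891 kept their direction and call under the alternatives, 194 kept the direction only and 11 changed sign. Of the values not called as reported 3 newly passed, and of those that did not 294 kept their sign and 25 changed it. Where a count or median differed from the reported one, the cause was not tested. With normexp, IRI vs Control had 2 members higher, IPC+IRI vs IRI 4 lower, IRI+Hemin vs IRI 3 lower, Hemin vs Control 1 lower and IPC+IRI vs Hemin 1 higher, the regulatory particle median in Hemin vs Control was 0.49, and Psmc4 in IRI+Hemin vs IRI was 0.12. Without scaling, IRI vs Control had 1 member higher and 1 lower, IPC+IRI vs IRI 0 lower, IPC+IRI vs Control 0 lower, IRI+Hemin vs IRI 1 lower, Hemin vs Control 0 lower, IRI+Hemin vs Hemin 1 higher and IPC+IRI vs Hemin 0 higher. Core ring medians without scaling were 0.77 in IPC+IRI vs IRI, 0.93 in IPC+IRI vs Control, 0.77 in IRI+Hemin vs IRI and 1.10 in Hemin vs Control. Regulatory particle medians were 0.31 in IRI vs Control, 0.51 in IPC+IRI vs IRI, 0.84 in IPC+IRI vs Control, 0.71 in IRI+Hemin vs IRI, 0.99 in Hemin vs Control, 0.021 in IRI+Hemin vs Hemin and -0.16 in IPC+IRI vs Hemin. Immunoproteasome medians were 1.11 in IPC+IRI vs Control and 0.63 in Hemin vs Control, and Psmb2 (0.10) and Psmb7 (0.014) in IPC+IRI vs Control, Psmd8 in IPC+IRI vs IRI (0.035) and Psmc4 in IRI+Hemin vs IRI (0.13) changed sign.

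With quantile scaling IRI vs Control had 4 higher and 5 lower, Hemin vs Control 5 lower and the interaction 1, and the regulatory particle median was 0.11 in IRI vs Control, 0.081 in IPC+IRI vs IRI, 0.22 in IPC+IRI vs Control and 0.26 in Hemin vs Control. With the percentile of probes well above background, IRI vs Control had 4 higher and Hemin vs Control 6 lower, with regulatory particle medians of 0.11 in IRI vs Control, 0.29 in IPC+IRI vs Control and 0.31 in Hemin vs Control. With the mean of log2 values over probes these were 0.019 in IPC+IRI vs IRI, 0.20 in IPC+IRI vs Control, 0.17 in IRI+Hemin vs IRI and 0.30 in Hemin vs Control, and Psmd11 in IRI+Hemin vs IRI was -0.065. By the brightest probe Psmd7 in IPC+IRI vs Control was -0.036. With the deposited matrix, which left out genes such as Psmd11 without a probe valued on all arrays, IRI vs Control had 4 higher, IPC+IRI vs Hemin 1 higher and the interaction 1, and Psme4 was -0.35 in IPC+IRI vs IRI, -0.40 in IPC+IRI vs Control, -0.32 in IRI+Hemin vs IRI and -0.19 in Hemin vs Control. With no filter IRI vs Control had 4 higher, and with a stricter filter the interaction had 1. With the compared arrays alone IRI vs Control had 4 higher, IPC+IRI vs Hemin 5 lower and the interaction 1. Fold cutoffs were taken from the study where it states them (IRI vs Control, IPC+IRI vs IRI, IPC+IRI vs Control and Hemin vs Control), and 3-fold up and 2-fold down were chosen here for the others. Under them 0 members were higher in any of the 7 comparisons (IRI vs Control, IPC+IRI vs IRI, IPC+IRI vs Control, IRI+Hemin vs IRI, Hemin vs Control, IRI+Hemin vs Hemin and IPC+IRI vs Hemin), 1 was lower in IRI+Hemin vs IRI, 2 in IRI+Hemin vs Hemin and 0 in IRI vs Control, IPC+IRI vs IRI, IPC+IRI vs Control, Hemin vs Control and IPC+IRI vs Hemin. Requiring every probe to be called, chosen after seeing the data, gave 13 higher in IRI+Hemin vs IRI, 1 lower in Hemin vs Control, 3 higher in IRI+Hemin vs Hemin and 1 higher in IPC+IRI vs Hemin.

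With single arrays left out in turn, IRI vs Control had between 4 and 16 members higher and between 2 and 3 lower, and the ranges of higher and lower were 16 to 21 and 6 to 8 in IPC+IRI vs IRI, 22 to 25 and 3 to 4 in IPC+IRI vs Control, 19 to 22 and 4 to 6 in IRI+Hemin vs IRI, 20 to 27 and 2 to 3 in Hemin vs Control, 5 to 7 and 5 to 10 in IRI+Hemin vs Hemin, 1 to 3 and 2 to 4 in IPC+IRI vs Hemin, and 0 to 2 for the interaction. Core ring medians ranged over these fits from 0.42 to 0.68 in IPC+IRI vs Control and from 0.46 to 0.73 in Hemin vs Control. Regulatory particle medians ranged from 0.15 to 0.27 in IRI vs Control, 0.35 to 0.54 in IPC+IRI vs Control, 0.27 to 0.43 in IRI+Hemin vs IRI and 0.36 to 0.51 in Hemin vs Control.

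The same replicate numbers occur in each group. Deviations from the group mean correlated between same-numbered arrays at -0.38 to 0.21 over 40 pairs (median -0.03), and 26 pairs lay below 0. The same-numbered pairs of Control and IRI arrays lay at 0.13, 0.05, 0.15 and 0.11. Of 20 arrays 4 were closest to their own number. This check showed no pairing by number over the groups, but such weak correlations cannot exclude one. With the replicate number as a block the interaction had 1 member called, and no other count left the range of 1.5 times. Calls past the threshold only without the block were Psmb4 in IRI vs Control, Psmb8 in IPC+IRI vs Control and Psmg3 in Hemin vs Control (limma adjusted p with the block = 0.054, 0.062 and 0.051). Slide as a random block could not be fitted, since no group spans several slides. Dim members such as Psma8 and Psmb11 are limited by their signal over background.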

Other observations

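Markers of kidney cells other than leukocytes were summed in the same way, as multiples of the 75th percentile. The 7 proximal tubule markers summed to 417 to 462 in Control, 306 to 428 in IRI, 264 to 378 in IRI+Hemin, 293 to 335 in IPC+IRI and 386 to 405 in Hemin, and 2 of 7 were called lower in IRI vs Control by limma, where 33.9% of all genes were. The 2 tubular injury markers, Havcr1 and Lcn2, summed to 1.47 to 1.72 in Control and 4.35 to 6.25 in IRI. They lay at 1.41 to 3.53 in IRI+Hemin, 2.45 to 7.89 in IPC+IRI and 0.689 to 1.33 in Hemin.

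The 4 markers of other nephron segments summed to 202 to 253 in Control, 225 to 272 in IRI, 231 to 376 in IRI+Hemin, 231 to 312 in IPC+IRI and 211 to 240 in Hemin. The 2 podocyte markers summed to 1.18 to 2.17 in Control and 0.797 to 1.15 in IRI, and the 3 endothelial markers to 2.13 to 3.08 and 3.19 to 4.15. In IRI vs Control 1 of the 3 endothelial markers was called higher and 1 lower. Of the 2 podocyte markers 1 was called lower and none higher. Of all genes 17.1% were called higher and 33.9% lower in that comparison. Neutrophil markers reached 2.14 to 9.73 in IRI+Hemin and 0.433 to 1.58 in Hemin. The part of these cells in the proteasome values was not tested.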
